A study of Mus musculus with 12 samples.

Results

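The nuclear genes for the subunits of oxidative phosphorylation were followed in mouse myeloid progenitors, wild-type or HMGN1-OE, as they differentiated in culture. A gene belonged to the group when its symbol began with Ndufa, Ndufb, Ndufc, Ndufs, Ndufv, Uqcr, Cox4 to Cox8 or Atp5, or was Sdha, Sdhb, Sdhc, Sdhd or Cyc1. Of the 23309 genes listed, 93 matched, and 87 of these reached 1 FPKM or more in 2 or more of the 12 libraries, the minimum that also defined the 11516 genes tested. FPKM is a read count scaled by transcript length and sequencing depth, here after normalization to spike-in RNAs. The 87 genes held 36 subunits of complex I, 4 of complex II, 9 of complex III, 13 of complex IV, 15 of complex V and 10 associated genes, 7 of which (Ndufaf1 to Ndufaf7) encode assembly factors. The 6 genes below the minimum were Cox4i2, Cox6b2, Cox7b2, Cox8b, Cox8c and Ndufa4l2, isoforms known from particular tissues or conditions.

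Oxidative phosphorylation takes place in the inner mitochondrial membrane. Complex I (NADH dehydrogenase) and complex II (succinate dehydrogenase, also an enzyme of the TCA cycle) pass electrons to coenzyme Q, complex III passes them to cytochrome c, and complex IV (cytochrome c oxidase) passes them to oxygen. Complexes I, III and IV pump protons, and complex V (ATP synthase) lets the protons flow back and makes ATP. A few subunits of complexes I, III, IV and V are encoded in mitochondrial DNA, and those were not analysed here. Mature neutrophils are known for few mitochondria and a reliance on glycolysis.

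The cells were CD117+ bone marrow progenitors on a C57BL/6 background, held as immature cells by a retroviral fusion of the estrogen receptor with HoxB8 in the presence of E2 and IL-3. All groups carry this fusion, so the model is an immortalized culture that matures in synchrony once E2 is withdrawn. The 6 groups were wild-type (WT) cells from littermates and HMGN1-OE cells, which carry human HMGN1 as a transgene, at 0 h with E2 and at 36 and 96 h without it, 2 libraries to a group. The labels number the libraries 1 and 2 without saying whether they came from separate mice, so a p-value measures the spread between these libraries. The columns of values carry other digits, and the 2 libraries of a group are called a and b here.

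Each sample held RNA of a fixed number of cells, normalized to 92 ERCC spike-in RNAs, so a value as deposited is a level per number of cells. Fewer cells of a type and less RNA per cell cannot be told apart on this scale. FPKM summed over all genes was 680260 to 1442600 in the 8 libraries at 0 and 36 h and 228950 to 559140 in the 4 libraries at 96 h, and 5 genes made up 26.4 to 32.8% of the sum at 96 h against 3.86 to 4.76% before. A difference was therefore also computed after each library had been centred on its median over the genes tested, which compares a gene with the middle of its own library. The read depth of the libraries is unknown. The mouse Hmgn1 row, which does not measure the human transgene, lay between 85.7 and 201 FPKM in the 8 libraries at 0 and 36 h and between 4.71 and 20.7 FPKM in the 4 at 96 h. The summed level of 7 myeloid progenitor markers was 5612 to 22172 FPKM at 0 and 36 h and 124 to 2336 FPKM at 96 h. The summed level of 10 markers of maturing neutrophils was 202 to 2955 FPKM before and 66995 to 172970 FPKM at 96 h. Library a of WT cells at 96 h listed S100a9, a neutrophil calcium-binding protein, at 0.0511 FPKM, where the other 3 libraries at 96 h held at least 26546 FPKM and its own S100a8 was 69948 FPKM.

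The subunit genes were among the most highly expressed genes in these cells. The median of their mean levels was 201 FPKM, against 16.9 FPKM over all genes tested, and 70 of the 87 averaged at least 100 FPKM over the 12 libraries. Complexes III, IV and V had medians of 415, 549 and 477 FPKM, above the 172 FPKM of complex I and the 141 FPKM of complex II. The associated genes stood far below, with a median of 16.8 FPKM. At 0 and 36 h the median gene of the group ranked at the 94.8 to 95.2 percentile mark of its library.

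Within complex V, Atp5b, the catalytic beta subunit of the rotating head, had the highest mean of the whole group at 1062 FPKM, followed by Atp5k, a small membrane subunit, at 969 FPKM, and Atp5d, the delta subunit, was lowest at 229 FPKM. In complex IV Ndufa4 had the highest mean, at 954 FPKM, followed by Cox8a at 783 FPKM. Ndufa4 is a protein once assigned to complex I and now counted with complex IV. The order of single libraries could differ from that of the means. Cox4i1 lay above Ndufa4 in every library at 96 h and below it in every earlier library. Atp5k lay above Atp5b in every library at 96 h, and before that only in wild-type library b at 0 h. The lowest subunit of complex IV was Cox6a2, the heart and muscle form of subunit VIa, at 0.83 FPKM, and its partner Cox6a1, the form of most tissues, averaged 549 FPKM. Cox7a1, the muscle form of subunit VIIa, averaged 7.06 FPKM, against 293 FPKM for the common form Cox7a2. Complex I ran from 20.8 FPKM in Ndufa11 to 421 FPKM in Ndufa3, with Ndufb7 next at 348 FPKM, all accessory subunits. In complex II the membrane anchor Sdhd led with 265 FPKM, above the flavoprotein Sdha with 149 FPKM, the iron-sulfur subunit Sdhb with 132 FPKM and the other anchor Sdhc with 121 FPKM. In complex III Uqcrq, a small accessory subunit, was highest with 542 FPKM, Uqcrh, the hinge protein, next with 495 FPKM and the Rieske iron-sulfur protein Uqcrfs1 lowest with 136 FPKM. The associated genes ran from 5.81 FPKM in Ndufaf5 to 43.8 FPKM in Ndufaf2 and 189 FPKM in Cox7a2l, a factor of respiratory supercomplexes.

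**Figure D1:**
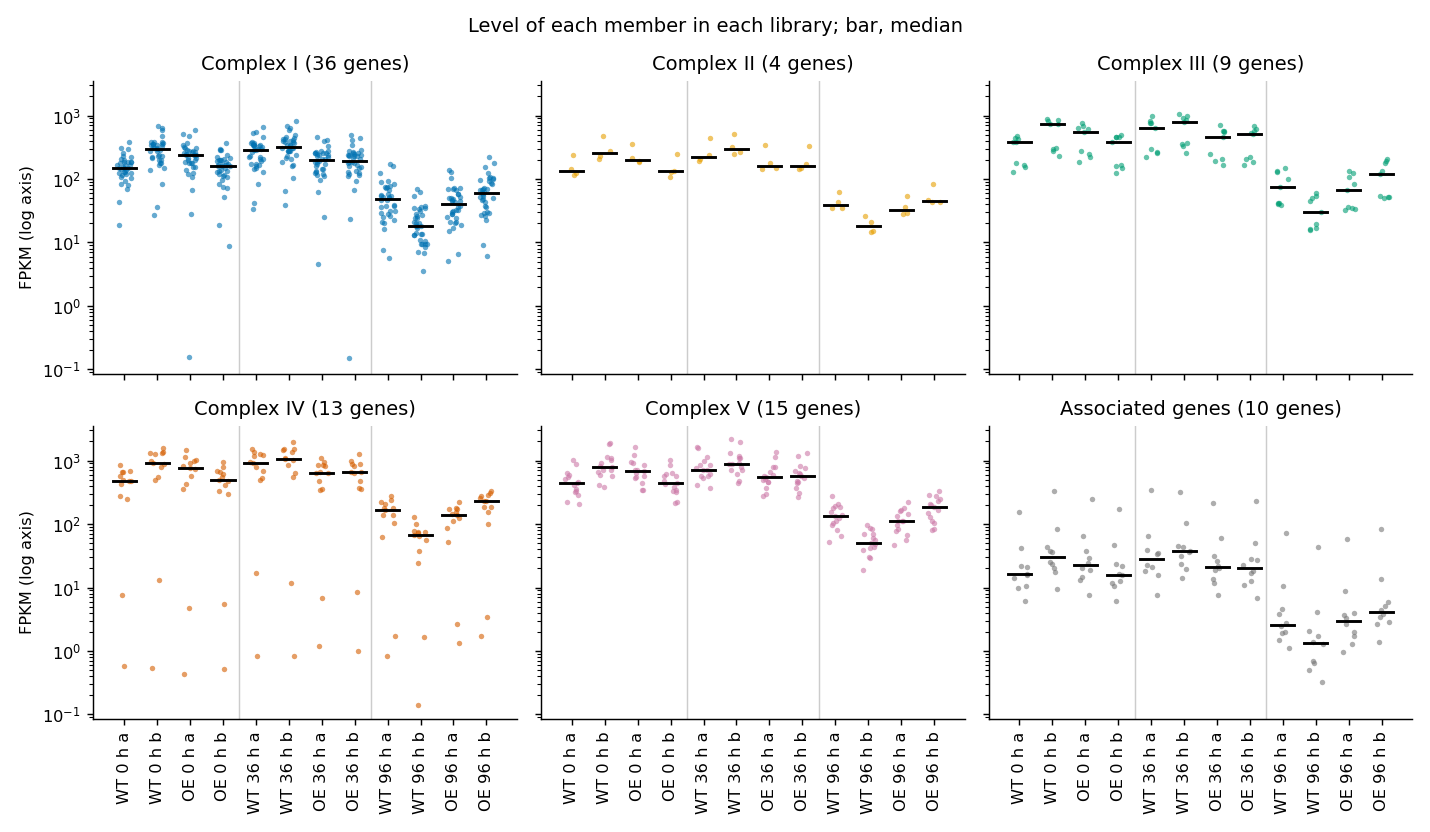
FPKM (log axis) of each gene in each of the 12 libraries, with 1 panel for each complex, 1 point per gene and library, and a bar at the median of the panel's genes (WT, wild-type, and OE, HMGN1-OE, with the hours after withdrawal of E2 and library a or b). Every panel drops at 96 h, Cox6a2 (mean 0.83 FPKM) and Cox7a1 (mean 7.06 FPKM) lie far below the rest of complex IV, and the 2 lowest points of complex I are Ndufs5 in HMGN1-OE libraries, at 0.159 and 0.151 FPKM.

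Between HMGN1-OE and wild-type progenitors at 0 h, these genes differed as little as genes in general. The median log2 difference of the 87 genes, HMGN1-OE minus wild-type on the log2(FPKM + 1) scale, was -0.13, and that of all genes tested was -0.12. limma, adjusted over all genes, called 1 of the 87, against 1.36% of all genes tested. That gene was Ndufs5, whose row is described after the 3 times. Both HMGN1-OE libraries had lower values than both wild-type libraries for 3 genes (Ndufs5, Cox6a2 and Cox7a1, against 4.67% of all genes), and higher values for 0 (against 3.26% of all genes).

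At 36 h the values in HMGN1-OE libraries were lower, by about as much as those of genes in general. Both HMGN1-OE libraries had lower values than both wild-type libraries for 85 of the 87 genes, but so they did for 84.4% of all genes tested. The median difference was -0.58 for the group and -0.54 for all genes. Cox6a2 was the 1 gene higher in both HMGN1-OE libraries (against 1.18% of all genes), with 1.21 and 1.01 FPKM against 0.822 and 0.820 FPKM in wild-type cells, and its log2 difference of 0.21 had an adjusted p of 0.57 with limma. The single gene called by limma was again Ndufs5, against 1.26% of all genes. After centring, the group medians were 0.01 at 0 h and 0.00 at 36 h and none of the 87 genes was called at either time, with 1 at an unadjusted p under 0.05 at each.

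At 96 h the HMGN1-OE cells tended to hold more of these transcripts, but the spread between libraries was as wide as the difference. The median log2 difference was 0.68, against 0.36 for all genes, and 86 of the 87 differences were positive. limma called 0 of the 87, with 1 at an unadjusted p under 0.05, where 0.669% of all genes were called. Both HMGN1-OE libraries exceeded both wild-type libraries for only 6 genes, Cox6a2, Cox7a1, Ndufaf1, Ndufaf2, Ndufaf6 and Ndufaf7, against 10.2% of all genes, and for 0 genes they lay below, against 2.97% of all genes. Ndufaf1 was added to the genes named once its values were known.

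The wild-type libraries at 96 h differed from each other, library b minus library a, by a median of -1.24 log2 units over the 87 genes and -0.89 over all genes, with library b lower for 86 of the 87. Against wild-type library a, HMGN1-OE libraries a and b had medians of -0.25 and 0.36 (all genes, -0.21 and 0.08). Against wild-type library b the medians were 0.97 and 1.56 (all genes, 0.66 and 0.93). Without wild-type library b the median difference between genotypes was 0.07 (all genes, -0.05), and without wild-type library a it was 1.29 (all genes, 0.79), and limma called 0 of the 87 genes in either case. After centring, the group median at 96 h was 0.27, where that of all genes was -0.05, and 82 of the 87 differences (94.3%) were positive, as were 44.3% of those of all genes. limma called 0 of the 87, with 26 at an unadjusted p under 0.05 (29.9%, against 17.9% of all genes). The number called on this scale was 12 (13.8%), all higher in HMGN1-OE cells, when wild-type library a was left out, where 7.76% of all genes were called higher, and it was 0 when library b was left out. Among the genes with a mean of at least 50 FPKM the difference as deposited was 0.70 for the 74 subunit genes and 0.64 for all 2482 such genes.

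Ndufs5, an accessory subunit of complex I, had a wider spread at 0 and 36 h than any other gene of the group. Its levels at 0 h were 103 and 27.2 FPKM in wild-type cells, against 0.159 and 8.79 FPKM in HMGN1-OE cells. At 36 h they were 42.3 and 64.5 FPKM in wild-type and 4.62 and 0.151 FPKM in HMGN1-OE cells. At 96 h all 4 libraries lay between 5.17 and 7.07 FPKM. The genotypes did not overlap at 0 and 36 h, with log2 differences of -4.01 (SE 0.48, limma adjusted p = 2.4e-14) and -4.39 (SE 0.48, limma adjusted p = 2e-17). At 96 h the difference was -0.15 (adjusted p = 0.92).

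These SEs rest on limma's trend of variance over expression and hold none of the spread of Ndufs5 itself, which was 651-fold from the lowest to the highest of the 4 libraries at 0 h and 428-fold at 36 h. For the other 86 genes the same range had a median of 1.91-fold at 0 h and 1.68-fold at 36 h and was at most 2.79-fold and 2.52-fold, both in Cox7a1. In the fit on centred values, which kept part of each gene's own spread, the adjusted p of Ndufs5 was 0.65 at 0 h and 1.0 at 36 h. An exact permutation test of 2 libraries against 2 cannot go below p = 0.333.

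BC002163 is a processed pseudogene of Ndufs5 on another chromosome. Shared sequence was counted as identical stretches of 50 bases, so the part of Ndufs5 that reads could tell apart was not measured. Of the 270 different stretches in the BC002163 transcript, 72.6% also occur in Ndufs5. Of the 903 in Ndufs5, 21.7% occur in BC002163. Its levels were 156 and 302 FPKM in wild-type and 257 and 155 FPKM in HMGN1-OE cells at 0 h, and 295 and 336 against 202 and 206 FPKM at 36 h. At 96 h they were 48.7 and 22.04 against 44.1 and 61.7 FPKM. Between genotypes BC002163 differed by -0.12, -0.62 and 0.65 log2 units at 0, 36 and 96 h, with limma adjusted p of 1.0, 0.50 and 0.86.

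The sum of the Ndufs5 and BC002163 rows was 259 and 329 FPKM in wild-type and 257 and 164 FPKM in HMGN1-OE cells at 0 h, and it lay between 1.01 and 1.73 times the median of the other complex I genes in the 12 libraries. BC002163 by itself lay between 0.960 and 1.21 times that median, so the sum says nothing about where the reads of Ndufs5 went. Ndufs5 took from 0.0619 to 39.9% of this sum. The log2 difference of the mean sums between genotypes was -0.51 at 0 h, -0.83 at 36 h and 0.53 at 96 h. How reads were divided between these rows was not tested, and the calls of Ndufs5 are uncertain.

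**Figure D2:**
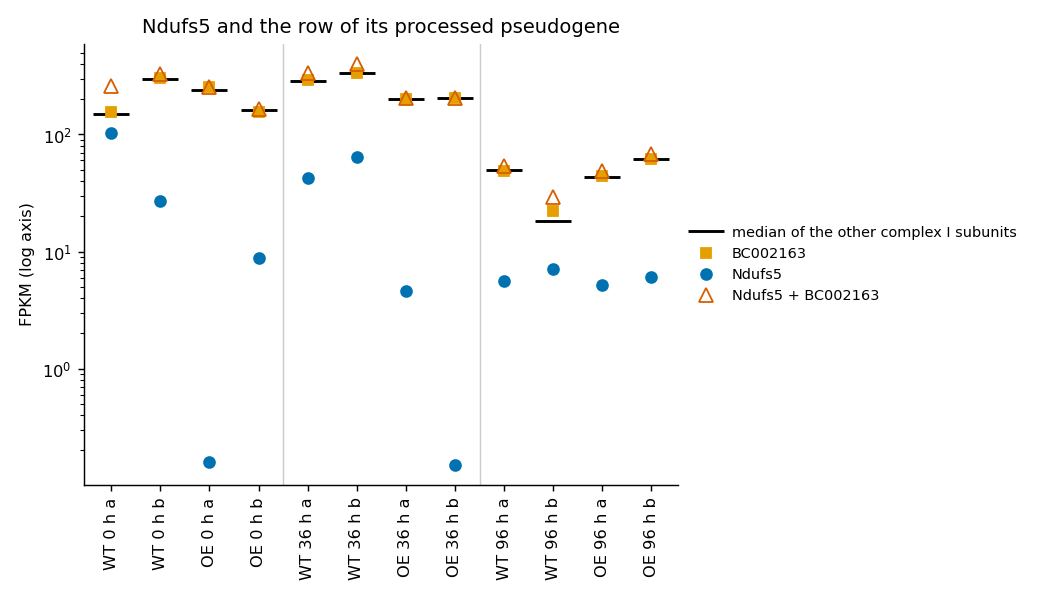
FPKM of Ndufs5, of its processed pseudogene BC002163, of their sum and of the median of the other complex I genes in each of the 12 libraries, on a log axis (OE stands for HMGN1-OE). Ndufs5 moves between 0.151 and 103 FPKM while BC002163 stays between 0.960 and 1.21 times and the sum between 1.01 and 1.73 times the complex I median.

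No gene of the group passed the test between 0 and 36 h. In wild-type cells the median log2 difference, 36 minus 0 h, was 0.49 for the group and 0.47 for all genes, and in HMGN1-OE cells it was 0.05 and 0.06. limma called 0 of the 87 genes in either genotype, with 0 at an unadjusted p under 0.05, where it called 0.617% of all genes in wild-type cells and 1.8% of them in HMGN1-OE cells. The test of whether the genotypes differed in this change called 0 of the 87 genes, with 0 at an unadjusted p under 0.05, and 0.504% of all genes.

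Between 36 and 96 h the transcripts of oxidative phosphorylation fell steeply in both genotypes. In wild-type cells 86 of the 87 genes were called lower and 0 higher, with a median log2 difference of -3.32. Over all genes tested 86.3% were called lower and 3.15% higher, and the median was -2.21. In HMGN1-OE cells 83 genes were called lower and 1 higher, with a median of -2.01, where 64.9% of all genes were lower and 4.02% higher and the median was -1.33. Without library a of HMGN1-OE cells at 96 h, the number called lower there was 37, and the share of all genes called lower was 30.8%. With all libraries, the same 83 genes were lower in both genotypes, against 64.4% of all genes. For 85 of the 87 genes, all but Ndufs5 and Cox6a2, every library at 96 h lay below all 8 earlier libraries, as for 76.3% of all genes.

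On the centred scale, against the middle of their libraries, most of the group still fell. In wild-type cells 73 genes were called lower and 1 higher, with a median of -0.99 where all genes had 0.11, and in HMGN1-OE cells 62 were lower and 2 higher, with -0.67 against 0.01. Of all genes, 33.7% were called lower and 38.2% higher in wild-type cells and 32.3% lower and 28.6% higher in HMGN1-OE cells. The genes called lower in both genotypes numbered 61, against 29.9% of all genes. Among genes averaging at least 50 FPKM, the deposited differences had medians of -3.36 for the group and -3.07 for all in wild-type cells and -2.03 and -1.88 in HMGN1-OE cells.

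The share of these genes in the summed FPKM of a library moved from 3.21 to 3.36% in the 8 earlier libraries to 1.25 to 1.65% in the 4 libraries at 96 h. Without the 5 highest genes of each library, the share was 3.34 to 3.504% before and 1.83 to 2.46% at 96 h, so the ranges did not overlap on either reckoning. The median rank of the group moved less, to the 92.1 to 94.5 percentile mark.

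The fall reached every complex. In wild-type cells the median log2 differences were -3.30 for complex I, -3.35 for complex II, -3.43 for complex III, -3.08 for complex IV, -3.36 for complex V and -2.99 for the associated genes. In HMGN1-OE cells they were -2.001, -2.15, -2.18, -1.78, -2.03 and -1.99 in the same order. Complexes II and III had all of their 4 and 9 genes called lower in wild-type cells also after centring, complex V 14 of 15, complex IV 11 of 13 and complex I 28 of 36. Of all genes, 33.7% were called lower in wild-type cells on that scale. Differences between the complexes themselves were not tested.

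**Figure D3:**
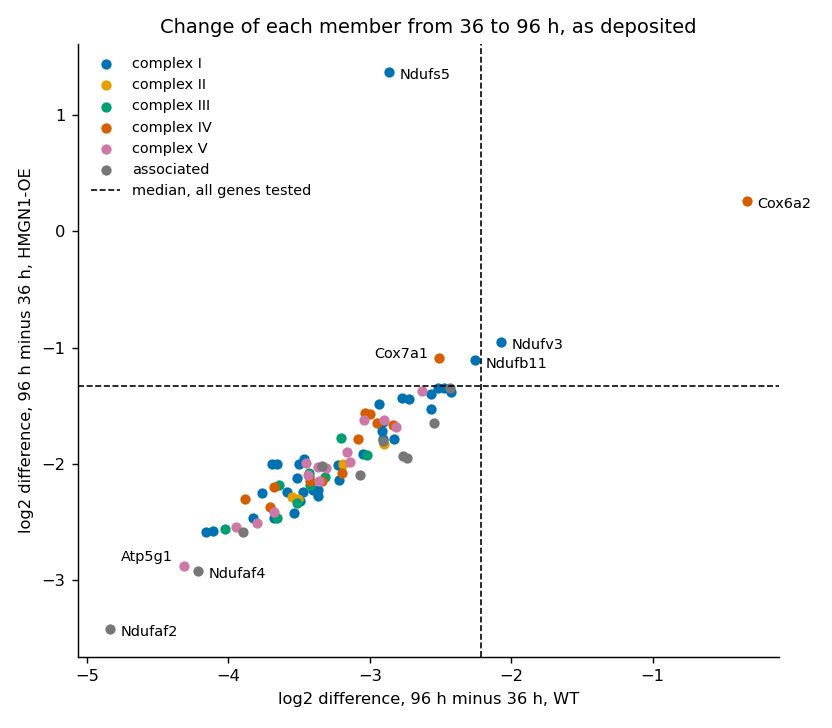
log2 difference of each of the 87 genes from 36 to 96 h in HMGN1-OE cells (vertical axis) against wild-type (WT) cells (horizontal axis), as deposited, coloured by complex, with dashed lines at the medians of all genes tested (-2.21 and -1.33). The genes lie along 1 line, with Ndufaf2 and Atp5g1 at its lower end, and Ndufs5 and Cox6a2 stand apart.

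Complex I takes electrons from NADH through its core subunits. Ndufv1, which binds NADH, had 148 and 164 FPKM in wild-type and 112 and 116 FPKM in HMGN1-OE cells at 36 h. At 96 h it had 21.0 and 9.45 FPKM and 19.1 and 26.9 FPKM. It fell by 3.37 log2 units in wild-type cells (SE 0.56, limma adjusted p = 6.3e-09) and by 2.28 in HMGN1-OE cells (SE 0.56, limma adjusted p = 0.00019), with no overlap of the times. Ndufs1, the large iron-sulfur subunit, moved alike, with -3.36 and -2.23. The 7 core subunits had medians of -3.37 (wild-type) and -2.14 (HMGN1-OE), and the 29 accessory subunits -3.05 and -1.91.

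Accessory subunits of complex I spread over a wide range. Ndufa12 fell from 338 and 499 FPKM to 36.5 and 13.2 FPKM in wild-type cells and from 254 and 254 FPKM to 32.0 and 53.7 FPKM in HMGN1-OE cells, log2 differences of -4.16 and -2.59. Ndufab1, the mitochondrial acyl carrier protein, which also serves fatty acid synthesis in the organelle, had -4.11 and -2.58. At the other end Ndufv3 went from 352 and 340 FPKM to 124 and 53.8 FPKM in wild-type cells, and it had 252 and 239 FPKM and then 103 and 155 FPKM in HMGN1-OE cells.

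Ndufv3 thus fell in wild-type cells by 2.07 log2 units (limma adjusted p = 0.00059) but was not called in HMGN1-OE cells, at -0.95 (adjusted p = 0.13), and after centring it was called higher there, by 0.39 (adjusted p = 0.040). Ndufb11 had a like pattern, with -2.25 in wild-type cells (adjusted p = 0.00016) and -1.11 in HMGN1-OE cells (adjusted p = 0.076). The interaction of genotype and time did not pass the test for either gene (limma adjusted p = 0.35 for each). Ndufa13, known also as GRIM-19, fell by 2.43 and 1.38 log2 units, and after centring its differences were -0.11 and -0.04, without a call. Ndufs5 was the gene called higher in HMGN1-OE cells, by 1.37 (SE 0.48, limma adjusted p = 0.008), and the sum with BC002163 differed by -1.82.

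Among the assembly factors of complex I, Ndufaf2 had the largest fall of the 87 genes. It went from 64.4 and 106 FPKM to 2.75 and 1.28 FPKM in wild-type cells and from 59.3 and 49.7 FPKM to 3.36 and 5.10 FPKM in HMGN1-OE cells. The log2 differences were -4.84 (SE 0.52, limma adjusted p = 1.3e-18) and -3.42 (SE 0.52, limma adjusted p = 1.9e-09). Ndufaf4 followed with -4.22 and -2.92, and Ndufaf3 fell least of these factors, with -2.43 and -1.35. The associated genes moved in rank from a median at the 51.5 to 55.3 percentile mark of the library to 28.2 to 35.9, where complex I moved from 93.7 to 94.2 to 89.1 to 92.1. The median falls of the associated genes in log2 units, given above, were no larger than those of complex I.

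All 4 subunits of complex II were called lower in both genotypes, as were 64.4% of all genes. Sdha, which oxidizes succinate, had 236 and 318 FPKM in wild-type and 176 and 174 FPKM in HMGN1-OE cells at 36 h and 34.7, 14.4, 28.5 and 43.2 FPKM in the same order at 96 h. It fell by 3.55 log2 units (SE 0.57, limma adjusted p = 2.7e-09) and by 2.29 (SE 0.57, limma adjusted p = 0.00028). Sdhb fell by 2.90 and 1.83, Sdhc by 3.19 and 2.01 and Sdhd by 3.51 and 2.30. After centring all 4 were still called lower in both genotypes, as were 29.9% of all genes.

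In complex III, cytochrome c1 (Cyc1) went from 256 and 331 FPKM to 41.0 and 16.5 FPKM in wild-type cells and from 193 and 186 FPKM to 36.1 and 53.6 FPKM in HMGN1-OE cells. It fell in both genotypes, with log2 differences of -3.43 and -2.08 (SE 0.57, limma adjusted p = 1e-08 and 0.00096). The largest fall of the complex was that of the small subunit Uqcr11, by 4.02 and 2.56, and the smallest in wild-type cells that of Uqcrfs1, by 3.02, with 1.93 in HMGN1-OE cells. The share of complex III in the FPKM of the group lay at 12.1 to 12.6% before and 10.7 to 11.3% at 96 h.

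In complex IV the 11 common subunits were all called lower in both genotypes, as were 64.4% of all genes. Cox4i1, a nuclear subunit needed for assembly of the complex, went from 1252 and 1446 FPKM to 275 and 127 FPKM in wild-type cells and from 861 and 879 FPKM to 225 and 331 FPKM in HMGN1-OE cells. It fell by 2.84 (SE 0.61, limma adjusted p = 7.1e-06) and 1.67 (SE 0.61, limma adjusted p = 0.012). Ndufa4 had -3.71 and -2.37. After centring, Cox4i1 and Cox5a were called lower in wild-type cells, by 0.51 and 0.62, and were not called in HMGN1-OE cells, at -0.33 (adjusted p = 0.062) and -0.31 (adjusted p = 0.054).

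Cox6a2 had 0.822 and 0.820 FPKM at 36 h and 0.833 and 0.138 FPKM at 96 h in wild-type cells, and 1.21 and 1.01 FPKM and then 1.36 and 1.71 FPKM in HMGN1-OE cells. Its log2(FPKM + 1) differences of -0.33 and 0.26 did not pass limma's test (adjusted p = 0.32 and 0.46), and after centring it was called higher in both genotypes, by 1.99 and 1.604. These levels lie near the minimum of 1 FPKM, where the pseudocount holds a difference close to 0 and centring then adds the shift of the library. Cox7a1 went from 17.0 and 11.9 FPKM to 1.71 and 1.64 FPKM in wild-type cells and from 6.73 and 8.58 FPKM to 2.69 and 3.43 FPKM in HMGN1-OE cells. It fell by 2.51 and 1.09 as deposited (limma adjusted p = 6.8e-08 and 0.024), and its centred differences of -0.19 and 0.25 were not called. Both HMGN1-OE libraries held less Cox7a1 than both wild-type libraries at 0 h (as for 4.67% of all genes) and at 36 h (84.4%). They held more at 96 h (10.2%), and limma called Cox7a1 between genotypes at none of these times.

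In complex V, all 15 genes were called lower in both genotypes, as were 64.4% of all genes. Atp5b had 1654 and 2156 FPKM in wild-type and 1344 and 1310 FPKM in HMGN1-OE cells at 36 h. At 96 h it had 208 and 70.8 FPKM in wild-type and 181 and 283 FPKM in HMGN1-OE cells. It fell by 3.95 (SE 0.61, limma adjusted p = 8.4e-10) and 2.55 (SE 0.61, limma adjusted p = 0.00017). Atp5a1, the alpha subunit beside it in the head, fell by 3.80 and 2.51.

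The ring of c subunits, which turns as protons pass, is made of 1 protein encoded by 3 genes that differ in the targeting peptide. Atp5g1 went from 581 and 703 FPKM to 51.3 and 18.7 FPKM in wild-type cells and from 487 and 453 FPKM to 47.4 and 83.2 FPKM in HMGN1-OE cells. It fell by 4.32 (SE 0.59, limma adjusted p = 3.6e-12) and 2.88 (SE 0.59, limma adjusted p = 9.8e-06), while Atp5g2 had log2 differences of -3.36 and -2.03 and Atp5g3 of -3.31 and -2.03, all called lower. Of the summed FPKM of the 3 genes, Atp5g1 made up 23.6 to 28.4% in the 8 earlier libraries and 14.6 to 17.8% in the 4 libraries at 96 h. Atp5g2 made up 32.4 to 35.04% and then 37.8 to 39.7%, and Atp5g3 38.5 to 43.8% and then 42.5 to 47.6%. The ranges of Atp5g1 and of Atp5g2 did not overlap between the earlier libraries and those at 96 h, and those of Atp5g3 did.

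**Figure D4:**
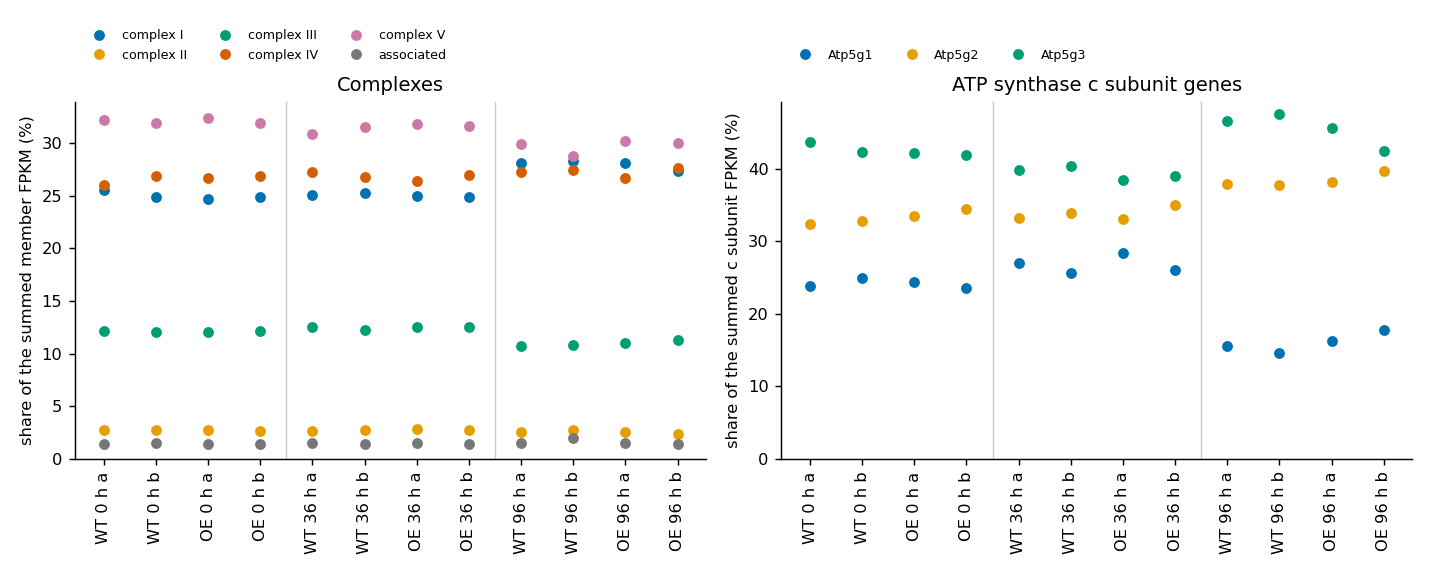
Share of each complex in the summed FPKM of the 87 genes (left, in percent) and share of Atp5g1, Atp5g2 and Atp5g3 in their own sum (right, in percent) in each of the 12 libraries (OE stands for HMGN1-OE). Complex I takes 24.7 to 25.5% before and 27.4 to 28.3% at 96 h, and Atp5g1 drops from at least 23.6% to at most 17.8% of the c ring transcripts.

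The shares of the complexes among these transcripts moved by small amounts. Complex I took 24.7 to 25.5% of the FPKM of the group at 0 and 36 h and 27.4 to 28.3% at 96 h, complex V 30.9 to 32.4% and then 28.8 to 30.2%, and complex IV 26.0 to 27.3% and then 26.7 to 27.6%. The ranges of complexes I, III and V did not overlap between the earlier libraries and those at 96 h. Complex II took 2.65 to 2.78% and then 2.34 to 2.69%. The order of the falls was alike in the 2 genotypes, with Spearman's rho 0.92 and Pearson's r 0.81 over the 87 genes and r 0.96 without Ndufs5. Over all 11516 genes r was 0.92 and rho 0.94. These are correlations across genes, which are not independent replicates, and each genotype's falls rest on its own 4 libraries. The falls in HMGN1-OE cells were smaller, by a median of 1.27 log2 units against 0.92 for all genes. Without wild-type library b at 96 h this was 0.63 against 0.47, and without wild-type library a 1.82 against 1.36. The interaction test called 1 of the 87 genes, Ndufs5, with 4 at an unadjusted p under 0.05, and 0.547% of all genes. Centred, the median was 0.28 against -0.06 for all genes and 0 genes were called, with 6 at an unadjusted p under 0.05.

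The promoters of the 3 c ring genes and of Atp5b are shown because the shift within the c ring concerns 3 genes for 1 protein and Atp5b has the highest mean level of the group. Each runs from 250 bases before to 50 after the start site on the strand of the gene, from RefSeq on GRCm38.p6, and no chromatin data were set against them. Capitals mark CCAAT on either strand (ATTGG when read backwards) and, in Atp5g2, a run that reads the same on both strands and is known as a motif of the factor NRF1.
Atp5g1 (chr11:96075582-96075881, minus strand): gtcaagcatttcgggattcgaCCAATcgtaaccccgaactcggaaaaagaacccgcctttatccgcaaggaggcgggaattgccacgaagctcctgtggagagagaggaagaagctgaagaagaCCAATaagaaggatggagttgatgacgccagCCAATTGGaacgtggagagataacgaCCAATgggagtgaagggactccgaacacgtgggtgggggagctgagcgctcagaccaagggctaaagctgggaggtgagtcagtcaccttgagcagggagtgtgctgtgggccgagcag
Atp5g2 (chr15:102670998-102671297, minus strand): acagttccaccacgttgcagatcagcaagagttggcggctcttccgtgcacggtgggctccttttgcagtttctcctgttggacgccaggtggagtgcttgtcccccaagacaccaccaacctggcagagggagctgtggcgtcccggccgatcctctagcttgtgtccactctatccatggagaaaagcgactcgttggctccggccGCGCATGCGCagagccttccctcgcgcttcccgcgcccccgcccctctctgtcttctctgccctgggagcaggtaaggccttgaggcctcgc
Atp5g3 (chr2:73911277-73911576, minus strand): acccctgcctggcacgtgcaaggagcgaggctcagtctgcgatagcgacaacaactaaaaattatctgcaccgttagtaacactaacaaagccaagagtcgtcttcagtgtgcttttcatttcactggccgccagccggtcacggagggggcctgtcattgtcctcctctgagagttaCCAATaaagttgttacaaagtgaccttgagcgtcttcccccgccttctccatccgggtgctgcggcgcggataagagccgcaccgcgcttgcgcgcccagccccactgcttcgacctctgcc
Atp5b (chr10:128083057-128083356, plus strand): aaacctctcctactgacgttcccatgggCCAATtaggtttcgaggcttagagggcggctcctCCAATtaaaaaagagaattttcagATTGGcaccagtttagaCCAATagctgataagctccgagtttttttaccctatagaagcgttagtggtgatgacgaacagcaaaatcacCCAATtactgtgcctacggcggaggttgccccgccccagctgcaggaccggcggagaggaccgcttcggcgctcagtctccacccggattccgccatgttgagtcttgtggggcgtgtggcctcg

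Atp5g1 and Atp5b each held 5 matches of CCAAT, the letters read by the factor NF-Y. A limit of 5, taken from these 2 genes themselves, was reached by 2.74% of the promoters of the group, 0.665% of those of tested genes and 0.311% of all. The 2.74% are these 2 genes alone, so with this limit the share of the group could not have been lower. In Atp5g1, a forward and a reverse match overlap. Atp5g3 held 1 match, 72 bases before the start site, and Atp5g2 none, but Atp5g2 held the NRF1 letters 42 bases before the start site.

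Letters read by factors known to act on respiratory genes were counted on both strands of the promoters of the 73 group genes found in RefSeq, of 9174 tested genes and of all 27025 genes with a promoter there. The NRF1 letters (those in capitals in Atp5g2) were in 9.59% of them, against 2.47% of tested genes and 1.07% of all genes. The YY1 letters AAGATGGC were in 15.1%, against 5.67% and 3.19%. The ETS letters CCGGAAG, which GABP reads, were in 23.3%, against 21.5% and 9.93%, and at least 1 of these 3 was in 43.8%, against 27.6% and 13.4%. CCAAT was in 43.8%, against 43.8% and 41.1%, and the TATA letters TATAAA were in 6.85%, against 8.68% and 15.7%. A match of letters describes the sequence and is not a measured site.

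Other genes of mitochondria, taken from lists chosen with earlier results of these data known, moved in the same direction between 36 and 96 h, when 86.3% (wild-type) and 64.9% (HMGN1-OE) of all genes were called lower, with medians of -2.21 and -1.33. All 18 genes listed for the TCA cycle, with Pdha1, Pdhb, Dlat and Pdhx of pyruvate dehydrogenase among them, fell in both genotypes. Their medians were -3.42 and -2.21 log2 units, and Idh2, the mitochondrial isocitrate dehydrogenase that makes NADPH, had -4.87 and -3.53. All 12 genes for import and chaperones fell, with medians of -3.89 and -2.70. The chaperonin Hspd1 went from 962 and 1245 FPKM to 34.8 and 10.5 FPKM in wild-type cells and from 787 and 761 FPKM to 31.5 and 63.0 FPKM in HMGN1-OE cells, and its partner Hspe1 had log2 differences of -5.80 and -4.17. Of 76 mitochondrial ribosomal proteins, 76 fell in wild-type cells and 75 fell in HMGN1-OE cells, with medians of -3.57 and -2.27.

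Of 10 carriers and mobile electron carriers 10 and 9 fell, with medians of -3.495 and -2.13, among them the ADP/ATP carrier Slc25a4 with -4.42 and -3.16 and cytochrome c (Cycs) with -3.88 and -2.42. Ucp2, an uncoupling protein of the inner membrane, fell by 1.85 in wild-type cells and was called higher there after centring, by 0.47 (limma adjusted p = 0.017). The 9 genes of coenzyme Q synthesis all fell, with medians of -3.20 and -2.06. Assembly factors fell as well: 13 of 13 for complex I (7 of them members of the group), 4 of 4 for complex II, 6 of 6 for complex III, 22 and 19 of 22 for complex IV and 3 of 3 for complex V, with medians between -2.93 and -3.36 in wild-type and between -1.77 and -2.24 in HMGN1-OE cells.

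Of 15 tested regulators of mitochondrial biogenesis, 15 fell as deposited in wild-type cells and 13 did so in HMGN1-OE cells, against 86.3 and 64.9% of all genes. After centring 9 were lower in each, with 2 and 1 higher. Of all genes, 33.7 and 32.3% were then called lower and 38.2 and 28.6% higher. Myc, which drives growth and ribosome genes, had log2 differences of -4.92 and -3.46, and Tfam, which packs mitochondrial DNA and aids its transcription, -3.41 and -2.31. Nrf1, Gabpa and Esrra, transcription factors of respiratory genes, had -2.26, -2.41 and -2.18 in wild-type cells, near the median of all genes, and were not called after centring in either genotype. Polg, the mitochondrial DNA polymerase, was called higher after centring, by 0.84 and 0.81. No gene of these lists was called between genotypes or between 0 and 36 h as deposited.

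**Figure D5:**
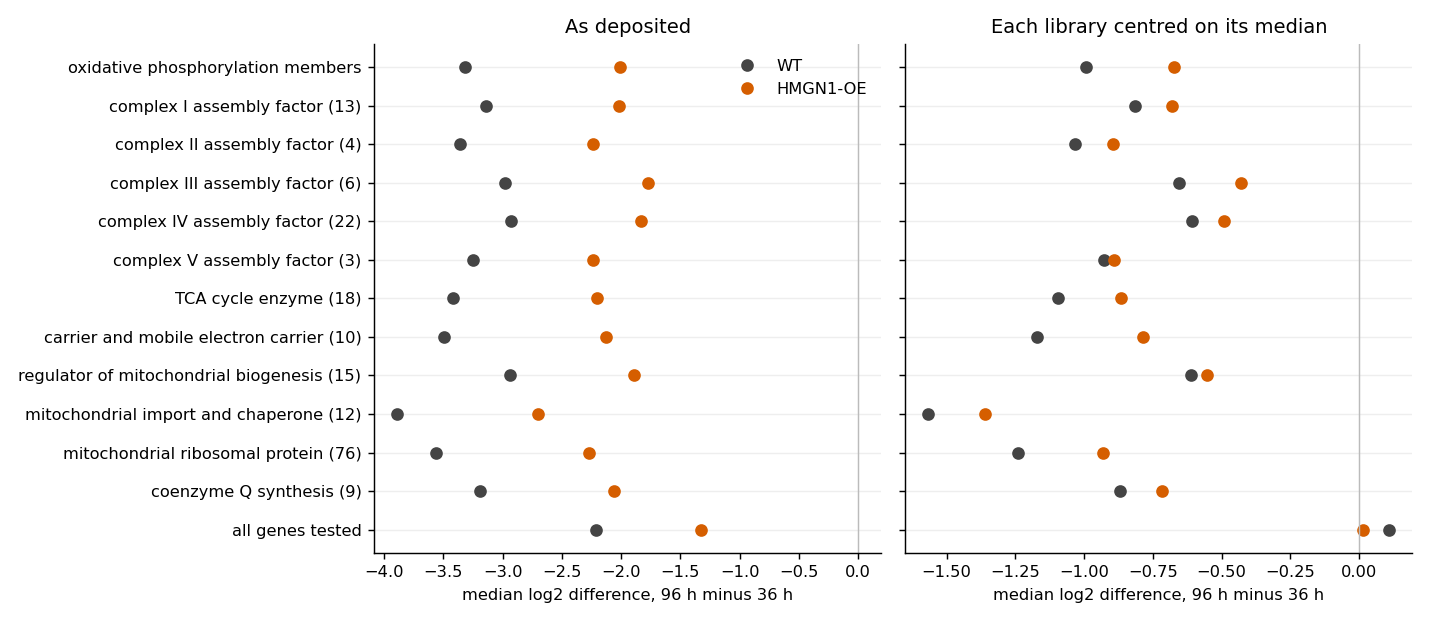
Median log2 difference, 96 minus 36 h, of the 87 genes, of each list of mitochondrial genes (number of genes in brackets) and of all genes tested, in wild-type (WT) and HMGN1-OE cells, as deposited (left) and after centring (right), with 1 point per list and genotype. Every list has a lower median than all genes tested (-2.21 and -1.33 as deposited), and import and chaperone genes are lowest, at -3.89 and -2.70.

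Some rows of the group share sequence with other transcripts. Of 86 genes found in GENCODE vM21, 38 shared no stretch of 50 bases with another gene entry and 24 shared over 10% of theirs. Atp5l (84.8%) and Atp5o (58.5%) were highest. For Atp5o, 34.8% of its stretches were shared with a further entry of the same symbol, which is not a different gene name. How such reads were divided was not tested. Marker levels moved with the fall: the progenitor sum was lower and the neutrophil sum higher in every library at 96 h than in any earlier library, and their part in the falls of the subunit genes was not tested. Between genotypes at 96 h, the progenitor sum was 124 to 693 FPKM in wild-type and 810 to 2336 FPKM in HMGN1-OE cells. The sum of 6 markers of eosinophils, basophils and mast cells was 1212 to 2461 FPKM against 298 to 916 FPKM. Of these, Prg2 (1970 and 933 against 186 and 472 FPKM) and Epx (153 and 49.1 against 14.1 and 25.3 FPKM) were apart. Mcpt8, Cpa3, Ms4a2 and Fcer1a overlapped between genotypes. The neutrophil sum, 66995 to 96389 FPKM against 121080 to 172970 FPKM, was apart only through S100a9, listed near 0 in wild-type library a. Over the other 9 neutrophil markers it was 96388 and 40450 FPKM in wild-type cells against 69203 and 99505 FPKM, which overlap. S100a8 held most of that sum, with 69948 and 29366 against 54572 and 83718 FPKM. Mmp8 (33.4 and 60.4 against 15.3 and 12.5 FPKM), Mmp9 and Cxcr2 were higher in both wild-type libraries. The rest of the 9 overlapped. At 36 h the neutrophil sum was 958 to 2053 FPKM in wild-type and 202 to 557 FPKM in HMGN1-OE cells. The progenitor sum was then 19013 to 22172 against 12609 to 15878 FPKM, and the eosinophil, basophil and mast cell sum overlapped. The part of marker levels in the genotype differences at 36 and 96 h was not tested.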

How the data were processed

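Polyadenylated RNA of 12 libraries was sequenced with an unstranded kit. The deposited values are FPKM, 1 per gene and library, normalized by the authors to ERCC spike-in RNAs by loess. The study's methods name Bowtie and RPKM, and the submitters' processing notes name HISAT, Cufflinks 2.0.0 and the mm9 build, and which of these made the table is not settled here. The table holds no read counts, so no interval for counting error is given.

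Genes had to reach 1 FPKM in 2 or more libraries. Differences of log2(FPKM + 1) were tested two-sided with limma 3.58.1 in R 4.3.3 (6 group means over all 12 libraries, eBayes with trend), with Benjamini-Hochberg adjustment over the 11516 genes and a call at an adjusted p under 0.05. limma set infinite prior degrees of freedom for the values as deposited, so that each SE came from the trend alone, and 2.87 after centring. A fold change on the log2(FPKM + 1) scale understates that of low genes.

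The genes of the group and all lists were chosen with earlier results of these data known. The genes named were drawn from the 2 highest and the lowest gene of each complex, catalytic and electron-carrying subunits, isoform sets, the 5 called genes with the largest difference each way in a comparison (or the 3 largest where none was called), genes called against the majority, and the 3 genes that changed most and least over time. Not all of these are named, and Atp5l, Atp5o, Ndufa13, Ndufaf1 and Uqcr11 were added once their values were known. Lists are given by counts and medians, with their highest genes and largest changes.

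Promoters came from RefSeq on GRCm38.p6, and 73 of the 87 genes matched. Transcript sequences for the count of shared stretches of 50 bases were those of GENCODE vM21. Figures were drawn with matplotlib 3.10.9 in Python 3.11.15. The limma step was tested on simulated data. The alternatives were other pseudocounts, filters, scalings and variance models, fits on the groups compared only, and each library left out in turn. Genes averaging at least 50 FPKM, and each wild-type library at 96 h left out together with centring, were added after the values were seen. The human HMGN1 transgene and the genes of mitochondrial DNA were not analysed here.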

Additional observations from a re-analysis of the deposited data

Results flagged for a closer look

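The change from 36 to 96 h differed between genotypes for Ndufs5, an accessory subunit of complex I, by 4.24 log2 units (HMGN1-OE minus wild-type, SE 0.68, limma adjusted p = 1.5e-07). The difference in wild-type cells was -2.87 and that in HMGN1-OE cells 1.37. The SE comes from the trend over all genes, and after centring the same interaction was 3.26 with an adjusted p of 0.68. For the processed pseudogene BC002163, which shares 72.6% of its stretches of 50 bases with Ndufs5 (and Ndufs5 21.7% of its own with it), the interaction was 1.27 (adjusted p = 0.35), near the median of 1.27 over the 87 genes.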

How the results depend on the processing

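No paired analysis was possible because the columns of values carry no replicate number that matches the numbers of the sample names. The median difference of the group from 36 to 96 h was negative in both genotypes under every alternative run. Calls in either direction numbered 69 to 86 of the 87 genes in wild-type cells and 37 to 85 in HMGN1-OE cells over the libraries left out in turn, with or without centring, where those of all genes made up 64.4 to 91.1% and 33.7 to 74.5%. The 37, all lower, came without HMGN1-OE library a at 96 h, where 83 had been called lower with all libraries, and the share of all genes called lower moved from 64.9 to 30.8%, and the cause was not tested. The single call between genotypes at 0 h and at 36 h, Ndufs5, was 0 with no filter, centred, with quantile normalization, with the robust option and, at 36 h, in the fit on the groups compared only. The single call of the interaction from 36 to 96 h was 0 under the same scalings, with no filter, with the robust option, without the trend and without HMGN1-OE library b at 36 h. Ndufs5 is not among the genes of at least 50 FPKM, and all 3 counts were 0 there. Over the libraries left out these 3 counts ranged from 0 to 1, and the count between genotypes at 96 h from 0 to 12, the latter without wild-type library a and centred.

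Of the calls of named genes over all alternatives, 2402 kept their direction and side of the threshold, 158 kept the direction only and 18 turned, all in the change from 36 to 96 h. Centred, Cox7a1 turned to 0.25 in HMGN1-OE cells, and Ndufb11 to 0.070 and Ndufv3 to 0.25 in wild-type cells. With quantile normalization, Cox7a1 turned to 0.14, Ndufa1 to 0.26, Ndufb3 to 0.079 and Ndufb7 to 0.10 in HMGN1-OE cells, and Cox7a2l to 0.092, Ndufa1 to 0.13, Ndufb11 to 0.38 and Ndufv3 to 0.54 in wild-type cells. Centred without wild-type library a at 96 h, Cox7a1 turned to 0.28, Ndufs5 to 0.084 and Ndufv3 to 0.14 in wild-type cells, and without library b Ndufb11 to 0.23 and Ndufv3 to 0.36, while Cox7a1 in HMGN1-OE cells stayed at 0.25. With libraries left out, the lowest and highest values were -2.75 and 0.28 for Cox7a1, -2.90 and 0.23 for Ndufb11, -3.16 and 0.084 for Ndufs5 and -2.66 and 0.36 for Ndufv3 in wild-type cells and -1.25 and 0.25 for Cox7a1 in HMGN1-OE cells. Both scalings remove the shift of the whole library.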
